A study of Mus with 18 samples.

Results

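The thin filament of striated muscle was followed through 10 genes: the sarcomeric actins Acta1 and Actc1, the troponin genes Tnnc1, Tnnc2, Tnni1, Tnni2, Tnnt1 and Tnnt3, and the tropomyosins Tpm1 and Tpm2. They were taken by gene symbol, and each of the 10 was present among the 21401 symbols of both expression tables, one for C2C12 cells and one for mouse gastrocnemius muscle. RNA had been sequenced from 18 libraries, with 3 libraries in each of 3 groups (control, LPS and LPS-MIC-1) per experiment. LPS is lipopolysaccharide, a bacterial cell wall component that triggers inflammation, and MIC-1 is moringa isothiocyanate-1, a compound from moringa seeds that was tested against that inflammation. The cells were labelled as wild-type C2C12 myoblasts, a mouse line of muscle precursor cells, and were given LPS at 1 μg/mL, or LPS at the same dose with MIC-1, over 24 h, while their controls were described as saline-treated. For the MIC-1 dose in cells the labels give 10 μM, and the study's own text gives another concentration, so the dose behind these libraries is uncertain. The muscle came from wild-type C57BL/6 male mice, whose age the labels do not give. Mice of the LPS group received LPS at 10 mg/kg intraperitoneally. Those of the LPS-MIC-1 group were also gavaged with MIC-1 at 80 mg/kg on each of 3 days before LPS, and control mice received vehicle. The labels name 10% DMSO for the LPS-MIC-1 mice and do not name it for the LPS mice. The study describes its control as 10% DMSO by mouth. Between the LPS-MIC-1 and LPS mice, DMSO thus cannot be told apart from MIC-1. Muscles were taken 16 h after LPS. There was no group with MIC-1 alone, and the labels tie no library to a particular mouse or culture dish, so every p-value below measures the spread between these libraries, which may be partly technical.

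Thin filaments are polymers of actin with tropomyosin lying along them and a troponin complex attached at intervals. Troponin C binds calcium, troponin I inhibits the filament at rest and troponin T anchors the complex to tropomyosin, so that a rise in calcium shifts tropomyosin and lets myosin reach actin. Most of these proteins come from separate genes for fast and slow muscle fibres: Tnnc2, Tnni2 and Tnnt3 serve fast fibres, and Tnnc1, Tnni1 and Tnnt1 serve slow fibres, Tnnc1 also serving heart. Acta1 is the actin of adult skeletal muscle, Actc1 the actin of heart and of developing skeletal muscle, Tpm1 the alpha tropomyosin of fast fibres and heart, with isoforms made in many other cell types, and Tpm2 the beta tropomyosin of skeletal muscle.

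Marker genes were examined before any comparison. In the libraries labelled C2C12 control, 9 macrophage genes summed to between 9406 and 9453 FPKM (fragments per kilobase of transcript per unit of library size, a level already scaled for transcript length), and in those labelled C2C12 LPS to between 6648 and 6831. In the LPS-MIC-1 libraries the same list gave 261, 79.6 and 90.5 FPKM in replicates 1 to 3. The 9 genes of the myoblast list went the other way, with sums of 0.136 to 0.408 FPKM in control, 0.301 to 2.43 under LPS and 844 to 1100 in LPS-MIC-1. Of that list, Myod1, the master regulator of the muscle lineage, was listed at 0 in 2 of the 3 control libraries and in 2 of the 3 LPS libraries. The markers thus contradict a C2C12 identity in the 6 control and LPS libraries of this experiment. Each direction below is one between libraries carrying those labels, and cell identity cannot be told apart from the treatment. In gastrocnemius the myoblast list summed to between 1698 and 1975 FPKM in every library, nearly all of it from Des, the muscle intermediate filament gene, with group means of 1607, 1590 and 1788 FPKM. Of its 8 genes tested there, 2 rose and 4 fell from LPS to LPS-MIC-1, where 28.3% of all tested genes rose and 28.2% fell. Myod1 fell from a mean of 33.9 to 4.72 FPKM (log2 difference -2.82) and Musk, a receptor kinase of the neuromuscular junction, rose from 2.91 to 16.4 FPKM (2.46). The macrophage list in muscle lay between 16.0 and 23.9 FPKM in control and LPS, and at 30.8, 29.0 and 174 FPKM in the LPS-MIC-1 replicates 1, 2 and 3. Its genes did not move together. Lyz2 had 5.27, 3.93 and 78.3 FPKM in those replicates against an LPS mean of 8.96, and Fcer1g 16.5, 15.5 and 26.0 against 7.36. Cd14 reached the mean of 1 FPKM needed for testing only through LPS-MIC-1. Of the other 5 genes tested, 1 rose from LPS to LPS-MIC-1 and 4 did not pass the test. The number of reads per library is unknown, but steps in the low values put the depth of the C2C12 libraries between 0.465 and 1.02 of control replicate 1, with LPS-MIC-1 replicate 3 the shallowest, and that of the muscle libraries between 0.988 and 1.11.

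**Figure D1:**
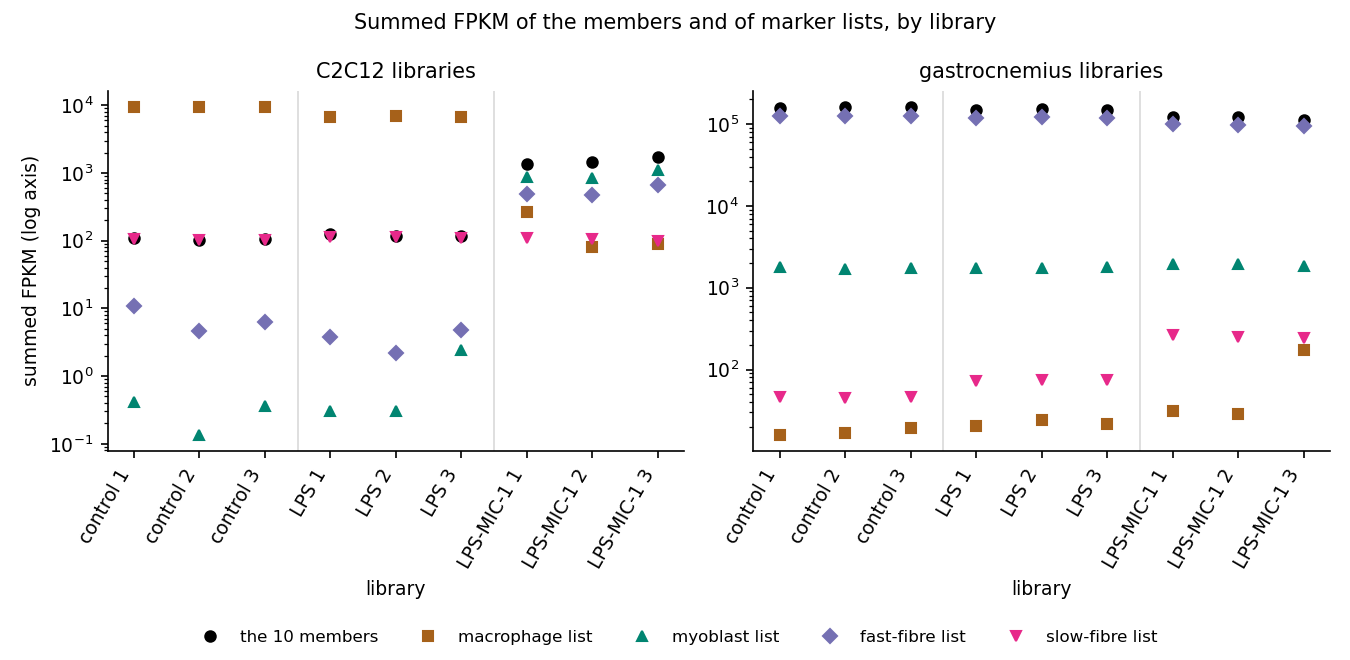
Each point is a library, and the vertical axis gives summed FPKM on a log scale for the 10 thin-filament genes and for the macrophage, myoblast, fast-fibre and slow-fibre lists in C2C12 (left) and gastrocnemius (right). In the C2C12 libraries labelled control and LPS the macrophage list sits at 6648 FPKM or more and the myoblast list at or below 2.43 FPKM, while in LPS-MIC-1 the order is reversed.

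In the C2C12 experiment the thin-filament genes stood far higher in the LPS-MIC-1 libraries than in the other groups. Their summed level was 101 to 125 FPKM over the control and LPS libraries and 1345, 1445 and 1708 FPKM in LPS-MIC-1, which is 0.0168 to 0.0197% of all FPKM in the former and 0.198 to 0.217% in the latter. A gene was said to have changed when its Benjamini-Hochberg adjusted p lay below 0.001 (C2C12 table) or 0.05 (muscle table), and to have been called when its absolute log2 fold change was also over 1. Between LPS-MIC-1 and LPS, 10 of the 10 genes changed, each upwards and each past the fold limit, where 66.5% of the 10877 genes tested changed (32.8% upwards, 33.7% downwards) and 49.9% were called (24.3% and 25.6%). The groups did not overlap for any of the 10, as for 85.5% of tested genes. Against control the count was again 10 of 10, beside 60.5% of tested genes changed (29.9% upwards, 30.5% downwards), 43.3% called (21.1% and 22.1%) and 83.0% not overlapping. However, 7 of these genes (Acta1, Actc1, Tnnc2, Tnni1, Tnnt1, Tnnt3 and Tpm2) exceeded the required mean of 1 FPKM only through their LPS-MIC-1 values and had to differ, so the count supports nothing beyond their levels. Both comparisons use the same LPS-MIC-1 libraries, and in both the macrophage and myoblast lists moved with the groups. The part of cell identity in these differences was not tested.

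**Figure D2:**
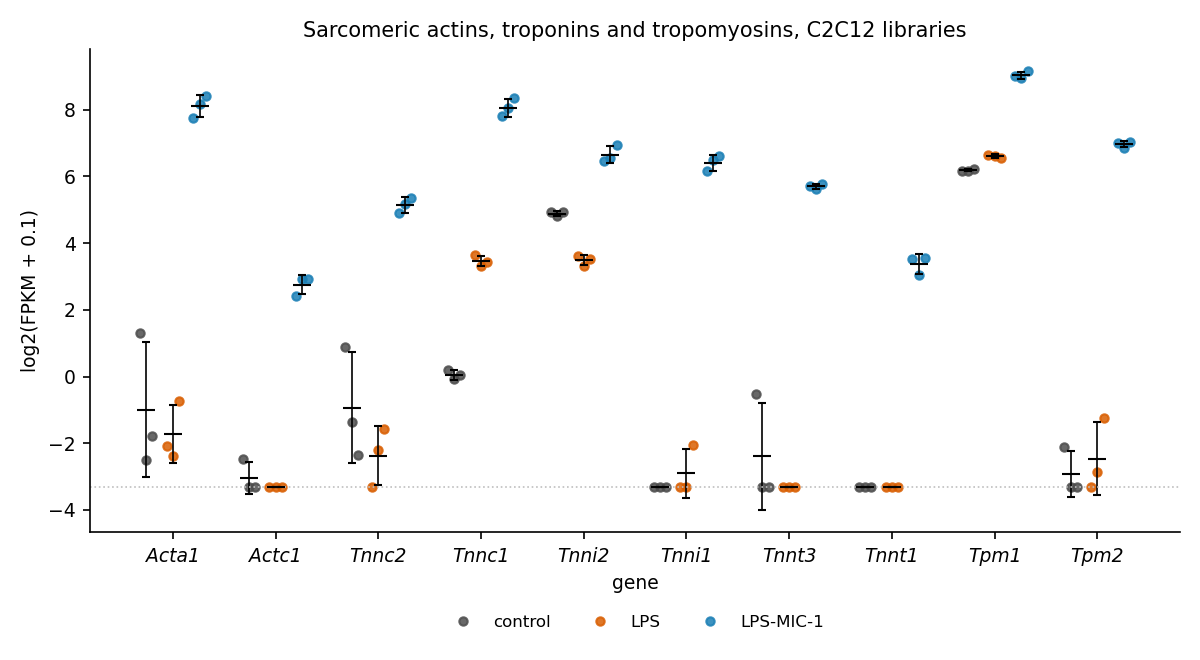
Each coloured point is a C2C12 library, at log2 of its FPKM plus 0.1 for the gene on the horizontal axis. Black bars give the mean ± SD of 3 libraries, and the dotted line marks a listed value of 0; the LPS-MIC-1 points lie above the other 6 libraries for each of the 10 genes.

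Of the sarcomeric actins in C2C12, Acta1 had 217, 287 and 344 FPKM in the LPS-MIC-1 libraries. It had 0.137, 0.0920 and 0.504 FPKM under LPS and 2.40, 0.0765 and 0.189 FPKM in control. The highest library outside LPS-MIC-1 was thus control replicate 1, and no library of either other group came near the lowest LPS-MIC-1 value. On the scale of log2(FPKM + 0.1), Acta1 differed between LPS-MIC-1 and LPS by 9.85 (standard error 0.929). This value depends on the added 0.1 because the LPS level is near 0. No p-value is given, since Acta1 exceeded the required mean only through LPS-MIC-1 and had to differ. Actc1 was much lower, at 5.24, 7.43 and 7.49 FPKM in LPS-MIC-1, was listed at 0 in each LPS library and reached 0.0785 FPKM in 1 control library. Since Acta1 and Actc1 encode nearly identical proteins, reads shared between them could have been split unequally, which was not tested.

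Among the troponin genes, the slow and cardiac calcium sensor Tnnc1 was the most abundant in the C2C12 LPS-MIC-1 libraries. Tnnc1 had 1.04, 0.842 and 0.922 FPKM in control, 12.3, 9.95 and 10.7 FPKM under LPS and 224, 264 and 325 FPKM in LPS-MIC-1. Its groups formed 3 separate steps upwards from control through LPS to LPS-MIC-1, as those of Tpm1 did. The LPS-MIC-1 mean of Tnnc1 was 24.7 times that of LPS, with a log2 difference of 4.60 (standard error 0.147, adjusted p = 2.74e-08). The fast calcium sensor Tnnc2 had 29.7, 35.7 and 41.0 FPKM in LPS-MIC-1, between 0 and 0.233 FPKM in LPS, and 1.76, 0.289 and 0.0951 FPKM in control. Its log2 difference from LPS was 7.51 (standard error 0.790). Tnnc2 exceeded the required mean only through LPS-MIC-1 and had to differ, so no p-value is given.

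The inhibitory subunits behaved differently from each other outside LPS-MIC-1. The slow gene Tnni1 was listed at 0 in each control library and in 2 LPS libraries, had 0.140 FPKM in LPS replicate 3, and had 70.9, 89.2 and 98.1 FPKM in LPS-MIC-1. The fast gene Tnni2 was present throughout, at 30.3, 27.8 and 30.5 FPKM in control, 12.3, 9.90 and 11.4 FPKM under LPS and 88.3, 94.2 and 123 FPKM in LPS-MIC-1. Its 3 groups were therefore separate, with LPS lowest and LPS-MIC-1 highest, and the LPS-MIC-1 mean was 9.08 times that of LPS and 3.44 times that of control (log2 differences 3.16 and 1.77, adjusted p = 1.05e-07 and 3.81e-06).

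Of the tropomyosin-binding subunits, the slow gene Tnnt1 was listed at 0 in each of the 6 control and LPS libraries and had 11.4, 8.10 and 11.6 FPKM in LPS-MIC-1. The fast gene Tnnt3 was listed at 0 in each LPS library and in 2 control libraries, had 0.592 FPKM in control replicate 1, and had 52.7, 49.0 and 54.2 FPKM in LPS-MIC-1. No fold is given against a group listed at 0.

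Tpm1, whose isoforms are also made outside muscle, was the most abundant of the 10 genes in every C2C12 group. It had 71.6, 72.1 and 74.6 FPKM in control, 101, 98.9 and 94.5 FPKM under LPS and 518, 494 and 571 FPKM in LPS-MIC-1. Its LPS-MIC-1 mean was 5.39 times that of LPS (log2 difference 2.43, standard error 0.0578, adjusted p = 8.02e-09), the smallest difference of the 10 genes on that scale. Tpm2 had 127, 116 and 132 FPKM in LPS-MIC-1 and no more than 0.327 FPKM in any control or LPS library. Its log2 difference from LPS was 9.43 (standard error 0.547), without a p-value because Tpm2 exceeded the required mean only through LPS-MIC-1.

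Within the C2C12 LPS-MIC-1 group, the order by mean level was Tpm1, Acta1, Tnnc1, Tpm2, Tnni2, Tnni1, Tnnt3, Tnnc2, Tnnt1 and Actc1. Acta1 and Tnnc1 overlapped in range, as did Tpm2 with Tnni2 and Tnni2 with Tnni1, while the other neighbours in that order did not overlap. Each of the 10 genes was highest in replicate 3, the shallowest library, whose FPKM values summed to 797734 against 667207 and 680837 in the other two.

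The LPS and control libraries labelled C2C12 differed in 3 of the 10 genes, 2 upwards and 1 downwards, where 37.8% of tested genes changed (18.6% upwards, 19.3% downwards). Tnnc1 and Tnni2 were also called, beside 20.9% of tested genes (10.9% upwards, 10.0% downwards), and 3 of the 10 had groups that did not overlap, beside 79.4%. Tnnc1 rose, with an LPS mean 11.8 times that of control and a log2 difference of 3.42 (standard error 0.147, adjusted p = 5.48e-07). Tnni2 fell to 0.379 of its control mean (log2 difference -1.40, standard error 0.130, adjusted p = 3.35e-05). Tpm1 rose to 1.35 times its control mean (log2 difference 0.43, standard error 0.0578, adjusted p = 0.000281), but it no longer passed the test without any single control or LPS library (adjusted p from 0.00105 to 0.00196, log2 difference from 0.41 to 0.45) or with libraries rescaled to equal sums, where the difference was 0.0911 (adjusted p = 0.0733). The other 7 genes overlapped between these groups and did not pass the test. High values fell mostly in 2 libraries, since 6 of the 8 genes detected in control were highest in control replicate 1, and 4 of the 7 detected in LPS were highest in LPS replicate 3, which was also the LPS library with the highest myoblast sum, 2.43 FPKM against 0.307 and 0.301.

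Gastrocnemius is a mixed muscle dominated in mice by fast fibres, and the 10 genes took a large part of its RNA. They made up 21.7 to 21.9% of summed FPKM in control muscle, 20.8 to 21.0% under LPS and 17.9 to 18.2% in LPS-MIC-1. Acta1 ranked first among all genes in each of the 3 groups. Between LPS-MIC-1 and LPS, 9 of the 10 genes changed, 4 upwards and 5 downwards, and 4 were called, where 56.5% of the 9475 genes tested changed (28.3% upwards, 28.2% downwards), 15.1% were called (9.67% upwards, 5.44% downwards) and 64.2% had groups that did not overlap. The 3 slow troponin genes and Tnnt3 rose, while Acta1, Actc1, Tnnc2, Tnni2 and Tpm1 fell, although quantile normalization turned the sign of Tnni2. Tpm2 did not pass the test. The same counts were found against control, where 58.5% of tested genes changed (30.0% upwards, 28.5% downwards), 15.5% were called (9.33% and 6.12%) and 64.6% did not overlap. The comparisons share the LPS-MIC-1 libraries, and Tnni1 and Tnnt1 passed the mean of 1 FPKM only through them. These genes had to differ, so their place in the counts supports nothing beyond their levels. In bulk tissue, fewer fibres of a type and less RNA per fibre cannot be told apart.

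**Figure D3:**
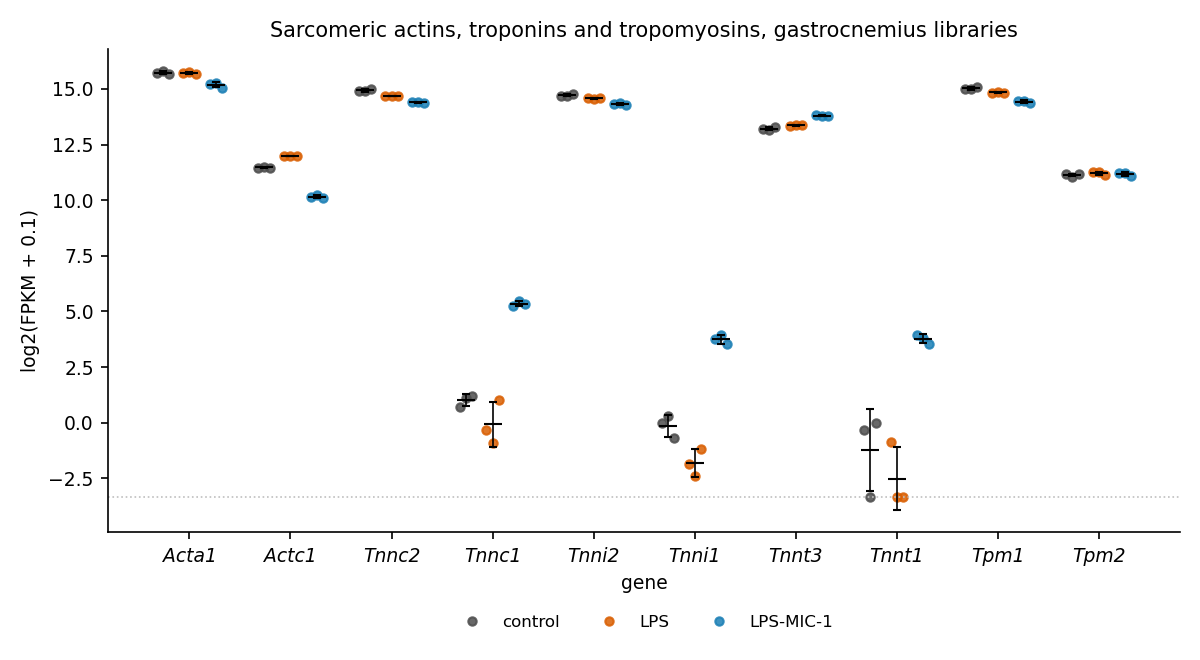
Each coloured point is a gastrocnemius library, at log2 of its FPKM plus 0.1, with black bars for the mean ± SD of 3 libraries and a dotted line at a listed value of 0. The slow troponin genes Tnnc1, Tnni1 and Tnnt1 lie far below the other 7 genes in every group and are higher in LPS-MIC-1 than in any control or LPS library.

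The slow troponin genes had the largest relative differences in muscle, from a low base. Tnnc1 had 1.53, 2.06 and 2.21 FPKM in control, 0.701, 0.425 and 1.95 FPKM under LPS and 37.8, 44.0 and 40.5 FPKM in LPS-MIC-1. The LPS-MIC-1 libraries were separate from both other groups, and their mean was 39.8 times that of LPS and 21.1 times that of control (log2 differences 5.42 and 4.34, standard error 0.426, adjusted p = 1.26e-05 and 4.55e-05). Tnni1 had 0.904, 1.12 and 0.521 FPKM in control, 0.175, 0.0881 and 0.348 FPKM under LPS and 13.7, 15.1 and 11.5 FPKM in LPS-MIC-1. On the log2(FPKM + 0.1) scale it stood 5.56 above LPS and 3.88 above control (standard error 0.354). Tnnt1 was listed at 0 in 1 control and 2 LPS libraries, did not exceed 0.880 FPKM in the other 3 of those groups, and had 15.4, 13.9 and 11.6 FPKM in LPS-MIC-1. Its log2 difference from LPS was 6.28 (standard error 0.951), and its size depends on the added 0.1. For Tnni1 and Tnnt1 no p-value is given, since both entered the test only through LPS-MIC-1 and had to differ.

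Their fast counterparts were among the most abundant transcripts of the tissue and moved by much smaller ratios. Tnnc2 had 30796, 30545 and 33094 FPKM in control, 26527, 26018 and 26377 FPKM under LPS and 21953, 21475 and 21059 FPKM in LPS-MIC-1. The 3 groups did not overlap and descended in that order, the LPS-MIC-1 mean being 0.817 of that of LPS and 0.683 of that of control (log2 differences -0.29 and -0.55, adjusted p = 0.000125 and 2.67e-06). Tnni2 descended in the same way, from 26441, 26490 and 27609 FPKM in control through 24427, 24129 and 24280 in LPS to 20630, 21176 and 19732 in LPS-MIC-1. Its LPS-MIC-1 mean was 0.845 of that of LPS (log2 difference -0.24, standard error 0.0307, adjusted p = 0.000205).

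The fast troponin T gene, Tnnt3, went the opposite way. It had 9346, 9211 and 10047 FPKM in control, 10273, 10518 and 10762 FPKM under LPS and 14499, 14078 and 14151 FPKM in LPS-MIC-1. The groups rose in that order without overlap, and the LPS-MIC-1 mean was 1.35 times that of LPS and 1.49 times that of control (log2 differences 0.44 and 0.58, standard error 0.0359, adjusted p = 1.63e-05 and 2.83e-06). It was the one fast troponin gene that did not fall in LPS-MIC-1.

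Both sarcomeric actins were lower in LPS-MIC-1 muscle. Acta1 had 53382, 56819 and 51768 FPKM in control, 54136, 54603 and 51785 FPKM under LPS and 38203, 39434 and 34109 FPKM in LPS-MIC-1. Control and LPS overlapped, whereas the LPS-MIC-1 libraries lay below both, with a mean of 0.696 of the LPS mean (log2 difference -0.52, standard error 0.0576, adjusted p = 9.18e-05). Actc1 was raised under LPS and then lowest in LPS-MIC-1: it had 2789, 2902 and 2812 FPKM in control, 4106, 4064 and 4001 FPKM under LPS and 1130, 1203 and 1087 FPKM in LPS-MIC-1. Its LPS-MIC-1 mean was 0.281 of that of LPS (log2 difference -1.83, standard error 0.0373, adjusted p = 4.33e-09) and 0.402 of that of control (log2 difference -1.31, adjusted p = 2.63e-08).

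The tropomyosins split. Tpm1 had 32767, 32356 and 34538 FPKM in control, 28757, 30093 and 29080 FPKM under LPS and 22744, 22151 and 21078 FPKM in LPS-MIC-1, again 3 groups in descending order with no overlap. The LPS-MIC-1 mean was 0.750 of that of LPS and 0.662 of that of control (log2 differences -0.41 and -0.60, standard error 0.0374, adjusted p = 2.84e-05 and 3.07e-06). Tpm2 lay between 2136 and 2454 FPKM in all 9 libraries, and the 95% interval of its log2 difference between LPS-MIC-1 and LPS ran from -0.15 to 0.07 (adjusted p = 0.513). Against control that interval ran from -0.06 to 0.16 (adjusted p = 0.429), although with libraries rescaled to equal sums the difference was 0.20 (adjusted p = 0.00229).

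With libraries rescaled to equal sums 9 of the 10 genes again changed between LPS-MIC-1 and LPS, with log2 differences of -0.40 for Acta1, -0.29 for Tpm1, -0.16 for Tnnc2 and -0.11 for Tnni2. Quantile normalization of the log2 values gives the same rank the same value in every library, and so fixes the top-ranked genes by construction. Under it Acta1 and Tnnc2 differed by 0 between LPS-MIC-1 and LPS, Tpm1 by -0.01 and Tnni2 by 0.02, and 5 of the 10 genes changed in place of 9. Actc1, Tnnt3 and the slow troponin genes kept their direction and still changed under that setting, with log2 differences of -1.79 for Actc1, 0.48 for Tnnt3, 5.31 for Tnnc1, 5.24 for Tnni1 and 6.20 for Tnnt1. For Tnni1 and Tnnt1, which passed the filter on low values only through LPS-MIC-1, a rise was fixed in advance under every setting with that filter. Without LPS-MIC-1 replicate 3, the library with a macrophage sum of 174 FPKM, 9 of the 10 genes still changed in both comparisons.

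LPS alone moved most of the muscle genes that changed by small ratios. Against control, 6 of the 10 genes changed, 2 upwards and 4 downwards, and Tnni1 was the 1 called, where 15.7% of tested genes changed (8.25% upwards, 7.48% downwards), 1.25% were called (0.654% and 0.591%) and 36.5% did not overlap. Actc1 rose 1.43 times (log2 difference 0.52, standard error 0.0373, adjusted p = 8.19e-05) and Tnnt3 rose 1.10 times (log2 difference 0.14, adjusted p = 0.0312). Tnni1 fell from a mean of 0.848 to 0.204 FPKM (log2 difference -1.68, adjusted p = 0.0154), Tnnc2 to 0.836, Tpm1 to 0.882 and Tnni2 to 0.904 of their control means (adjusted p = 0.00162, 0.0143 and 0.0157). Only Actc1 and Tnnc2 were changed under every alternative setting and with every library left out. The Tnni1 values lay at or below 1.12 FPKM, and over these alternatives its log2 difference ran from -2.13 to -0.61, so its call depended on the setting. The count fell to 3 without LPS replicate 1, and likewise without the filter on low values. Acta1, Tnnc1, Tnnt1 and Tpm2 did not pass the test.

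**Figure D4:**
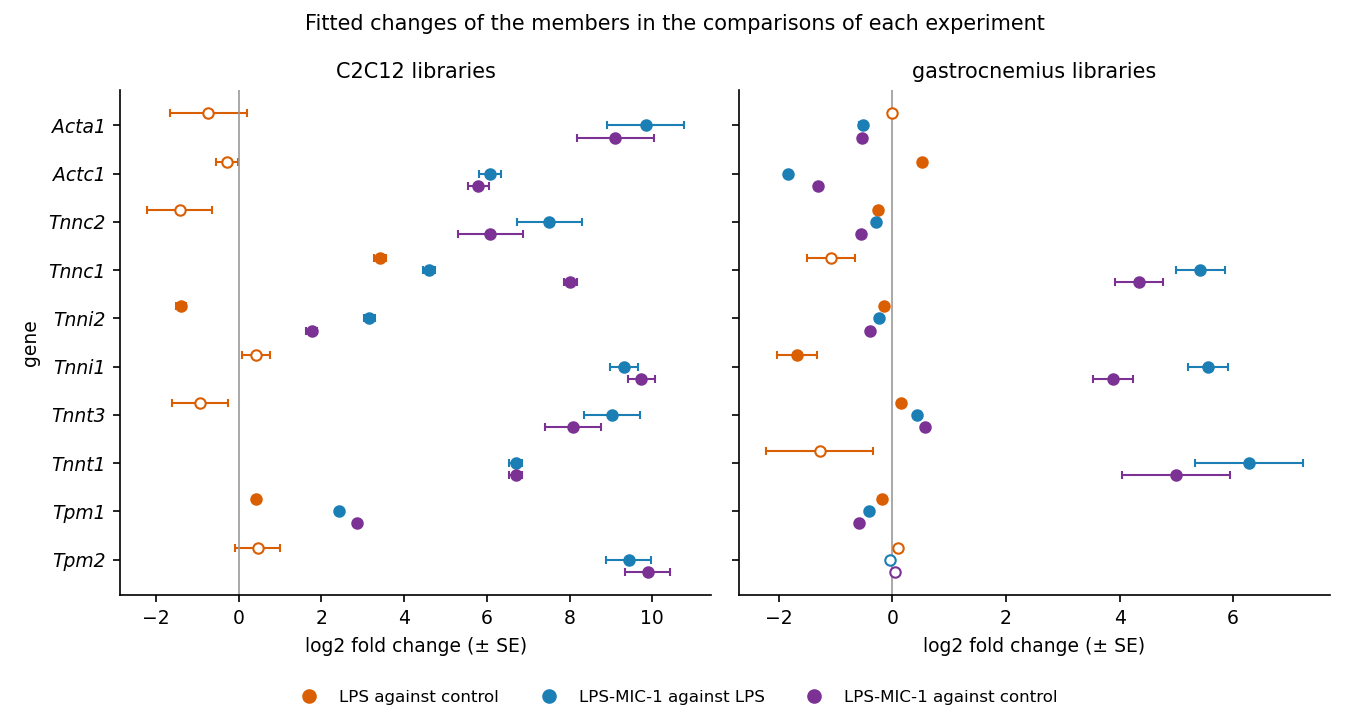
Points give the fitted log2 fold change of each gene and bars its standard error, for 3 comparisons in C2C12 (left) and gastrocnemius (right). Filled points passed the adjusted p threshold of the experiment and open points did not; in C2C12 the LPS-MIC-1 comparisons lie right of 0 for each gene, in muscle on both sides, and Tnnt1 has no point for LPS against control in C2C12, where it was listed at 0 in both groups.

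Setting the slow, cardiac or beta gene of each pair against its partner shows how little of the muscle's thin-filament RNA the slow genes supplied. In control muscle, Tnnc1 made up 0.00614 ± 0.00101% (SD, n = 3) of the Tnnc1 and Tnnc2 sum, and in LPS-MIC-1 0.189 ± 0.0163%. The share of Tnni1 in its pair was 0.00318 ± 0.00119% in control, 0.000838 ± 0.000544% under LPS and 0.0653 ± 0.00649% in LPS-MIC-1, and that of Tnnt1 was 0.0955 ± 0.0125% in LPS-MIC-1. The troponin pool of gastrocnemius thus remained almost wholly of the fast type in each group. Actc1 supplied 4.99 ± 0.148% of the sarcomeric actin pair in control, 7.05 ± 0.122% under LPS and 2.97 ± 0.108% in LPS-MIC-1. Tpm2 supplied 6.32 ± 0.188%, 7.52 ± 0.300% and 9.53 ± 0.112% of the tropomyosin pair in the same order, while its own level did not pass the test and that of Tpm1 fell, a fall that quantile normalization reduced to -0.11 against control.

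In the C2C12 LPS-MIC-1 libraries the pairs were balanced quite differently, and since the tables were normalized separately only these within-library shares can be set beside those of muscle. Tnnc1 made up 88.4 ± 0.366% of its pair, Tnni1 45.9 ± 2.39% and Tnnt1 16.6 ± 2.05%. Actc1 supplied 2.34 ± 0.198% of the actin pair and Tpm2 19.2 ± 0.470% of the tropomyosin pair. The slow share therefore ran from a minority for troponin T to a large majority for troponin C, and replicates lay close together for each pair. In the C2C12 LPS libraries Tnnc1 took 98.9 ± 1.06% of its pair, but Tnni1 took 0.403 ± 0.698% and Tpm2 0.128 ± 0.189% of theirs.

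**Figure D5:**
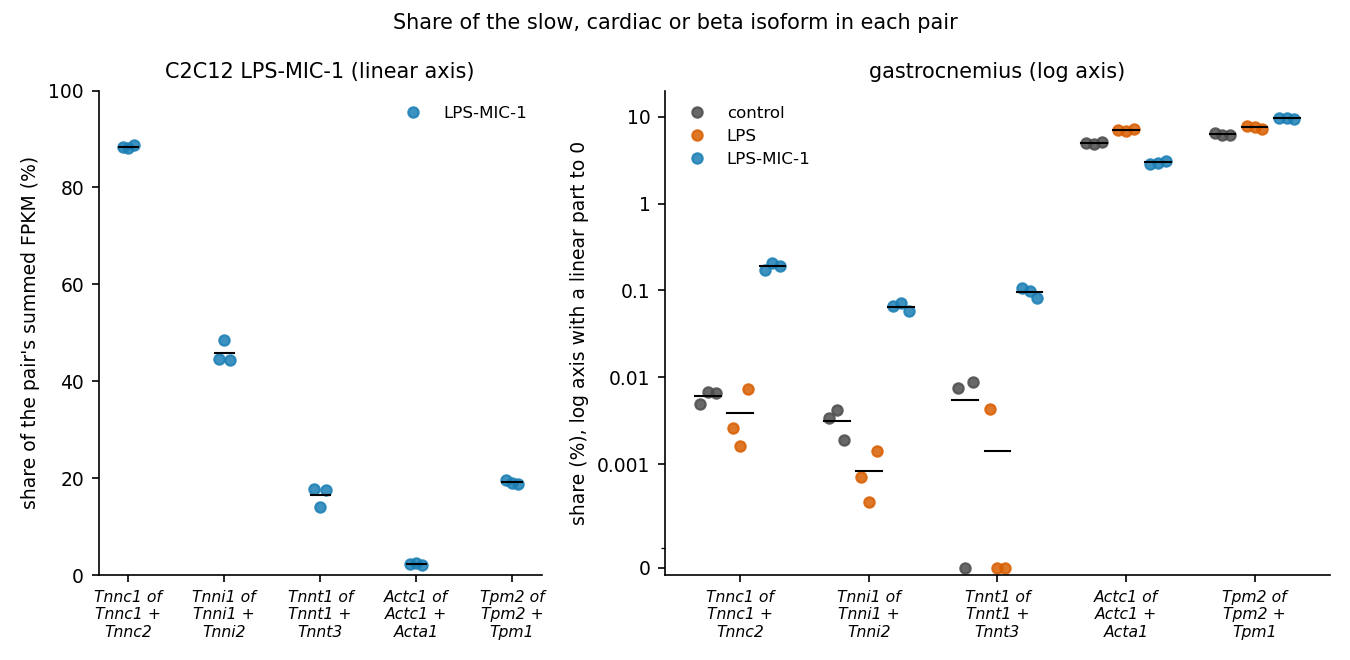
Points are libraries and black lines the mean of 3, for the share (%) of the slow, cardiac or beta gene in the summed FPKM of its pair. The left panel has a linear axis and shows the C2C12 LPS-MIC-1 libraries; the right panel has a log axis with a linear part near 0 and shows the 3 muscle groups, where the slow troponin shares reach at most 0.204%.

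Other genes of the contractile apparatus were taken as fixed lists. Of 8 slow-fibre genes, 7 could be tested in muscle, and between LPS-MIC-1 and LPS 6 rose and 1 fell. Myh7 and Myl2 passed the filter on low values only through LPS-MIC-1 and so had to differ, and of the other 5 genes 4 rose and 1 fell, beside 28.3% and 28.2% of all tested genes. Mybpc1, a myosin-binding protein of slow fibres, went from 41.5 ± 0.706 to 124 ± 5.34 FPKM, Myl3, a slow myosin light chain, from 15.5 ± 0.824 to 42.3 ± 2.68 FPKM, and Myl2, the slow regulatory light chain, from 0.357 ± 0.0881 to 49.3 ± 4.30 FPKM. The exception was Casq2, a calcium-storage protein of slow fibres and heart, which fell from 3.93 ± 0.0892 to 1.09 ± 0.176 FPKM. Of the 10 fast-fibre genes 1 rose and 6 fell, with a median of -0.16, but with libraries rescaled to equal sums 4 rose and 5 fell, with a median of -0.03. Myl1, a fast myosin light chain, fell from 34498 ± 1080 to 25148 ± 1648 FPKM, Mylpf, the fast regulatory light chain, from 29059 ± 625 to 18784 ± 605 FPKM and Pvalb, the calcium buffer of fast fibres, from 24109 ± 373 to 22361 ± 1192 FPKM. The gene that rose was Myh2, and the major fast myosin Myh4 did not pass the test (adjusted p = 0.978). Summed over each list, slow-fibre genes gave 44.6 to 46.3 FPKM in control, 72.9 to 74.7 under LPS and 245 to 262 in LPS-MIC-1, against 124665 to 127227, 117567 to 121137 and 93417 to 100834 for fast-fibre genes. Mybpc1 made up a large part of the slow-fibre sum, with 18.2 ± 0.503 FPKM in control. Between LPS and control 2 of the 7 slow-fibre genes rose and 1 fell, beside 8.25% and 7.48% of all tested genes, with a median log2 difference of -0.08.

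Proteins that bind, cap or anchor thin filaments were measured by 18 of the 20 symbols of a partner list, and 17 could be tested in muscle. Between LPS and control 10 rose and 1 fell, beside 8.25% and 7.48% of all tested genes. Their median log2 difference was 0.21 beside 0.01 over all tested genes. Between LPS-MIC-1 and LPS 6 rose and 9 fell, beside 28.3% and 28.2% of all tested genes, with a median of -0.11. With libraries rescaled to equal sums, in contrast, 7 rose and 4 fell, with a median of 0.02. Tcap, a Z-disc cap of titin, had 2127 ± 10.7 FPKM in control, 2187 ± 52.6 under LPS and 7214 ± 201 in LPS-MIC-1 (log2 difference 1.72 from LPS). Ldb3, another Z-disc protein, had 1694 ± 7.67, 2356 ± 24.8 and 1770 ± 88.9 FPKM in the same order, and Actn3, the fast-fibre alpha-actinin, 4210 ± 31.8, 4164 ± 56.1 and 4133 ± 182 FPKM, passing the test in neither comparison. The largest difference in the list belonged to Lmod2, a leiomodin that nucleates thin filaments, at 2.93 ± 0.507, 6.01 ± 0.155 and 104 ± 3.94 FPKM. Lmod2 is named because its value was seen, not by rule.

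Actins, troponins and tropomyosins of other cell types and of heart, with Tpm3, a tropomyosin gene that also serves slow fibres, formed a list of 8. In muscle 6 could be tested, of which 4 rose and 1 fell between LPS-MIC-1 and LPS, beside 28.3% and 28.2% of all tested genes. Their median log2 difference was 1.35, beside -0.01 over all tested genes. The cytoplasmic actin gene Actb had 339 ± 0.717, 285 ± 3.82 and 293 ± 14.8 FPKM in control, LPS and LPS-MIC-1, Actg1 34.5 ± 1.45, 30.4 ± 7.22 and 82.8 ± 7.89 FPKM, and the non-muscle tropomyosin Tpm4 18.5 ± 1.28, 14.1 ± 0.945 and 33.5 ± 1.52 FPKM. Tpm3 had 3.64 ± 1.72, 2.79 ± 1.66 and 15.9 ± 0.79 FPKM in the same order, with a log2 difference of 2.69 between LPS-MIC-1 and LPS. In C2C12 all 8 were tested, but Acta2, Actg2, Tnnt2 and Tpm3 passed the filter only through LPS-MIC-1. Of the other 4 genes 2 rose and 2 did not pass the test, where 32.8% of all tested genes rose and 33.7% fell. There Actb had 2838 ± 120, 1576 ± 32.5 and 4249 ± 509 FPKM, Actg1 1036 ± 26.6, 1460 ± 3.46 and 2398 ± 371 FPKM, and Tpm4 202 ± 3.92, 224 ± 5.54 and 316 ± 45.6 FPKM.

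In the C2C12 table few genes of the fibre lists could be tested. Of 5 fast-fibre genes tested, Myl1, Atp2a1 and Casq1 passed the filter only through LPS-MIC-1 and had to differ, and of the other 2 genes 1 rose and 1 fell between LPS-MIC-1 and LPS. Mylpf had 1.26 ± 0.854 FPKM in control, 1.23 ± 0.986 under LPS and 341 ± 93.2 in LPS-MIC-1, and Myl1 0.559 ± 0.968, 0.0313 ± 0.0542 and 190 ± 27.1 FPKM. Of 3 slow-fibre genes tested, Myl2 and Casq2 entered in the same way and the other 1 fell. Of 7 partner genes tested, Actn3 and Xirp1 entered in the same way, and of the other 5 genes 2 rose and 1 fell. Over all genes tested in C2C12, 32.8% rose and 33.7% fell between LPS-MIC-1 and LPS. These counts are a description of the lists. The adult fast myosins were low in LPS-MIC-1, with 1.28 ± 0.518 FPKM for Myh1, 0.0467 ± 0.00813 for Myh2 and 0.265 ± 0.297 for Myh4, while Myh7, the slow myosin, had 0.636 ± 0.231 FPKM, all below the mean required for a test.

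Troponin I and troponin T genes lie in pairs along the chromosomes, which does not hold for the troponin C genes. In the gene order of RefSeq for GRCm38.p6 Tnni2 and Tnnt3 are separated by the single coding gene Lsp1. Likewise, Tnni1 and the cardiac Tnnt2 are separated by Lad1, and Tnnt1 and the cardiac Tnni3 by none. In muscle, Tnni2 fell (except under quantile normalization) and its neighbour Tnnt3 rose in LPS-MIC-1, and Lsp1, a leukocyte protein gene between them, had 14.2 ± 4.31 FPKM under LPS and 19.3 ± 3.98 in LPS-MIC-1 without passing the test (adjusted p = 0.148). In C2C12, Lsp1 went from 145 ± 3.78 FPKM in control to 31.4 ± 2.79 under LPS and 26.7 ± 1.94 in LPS-MIC-1, the direction of the macrophage list, while both its neighbours were highest in LPS-MIC-1. Tnnt2, the neighbour of Tnni1 beyond Lad1, was listed at 0 in C2C12 control, had 0.120 ± 0.101 FPKM under LPS and 83.9 ± 1.74 in LPS-MIC-1, close to the 86.1 ± 13.8 FPKM of Tnni1. Tnni3, beside Tnnt1, did not follow it, with 1.77 ± 0.299, 0.919 ± 0.524 and 0.572 ± 0.447 FPKM in the same groups.

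Genes whose pattern was most like that of the members were ranked by Pearson's r over the 9 libraries of an experiment, as a description, since the libraries share 3 groups and their depth. In muscle the fast profile (the mean of scaled Acta1, Tnnc2, Tnni2 and Tnnt3) was followed most closely by Hspb3, Exoc7, Prkcq, Uqcr11 and Ckm, with r from 0.987 to 0.991. That mean combines opposing genes in muscle, since Tnnt3 entered with the same sign but had an r of -0.951 to Acta1. The muscle profile therefore does not represent the fast genes as a set. Ckm, the muscle creatine kinase, had 39332 ± 885, 35560 ± 396 and 28586 ± 1027 FPKM in control, LPS and LPS-MIC-1. The slow profile (Tnnc1, Tnni1 and Tnnt1) was followed by Rdh9, Xpc, Klhl38, Lpin3 and Rnf169, with r from 0.993 to 0.998, and Klhl38 had 9.52 ± 0.828, 4.66 ± 0.282 and 89.8 ± 1.32 FPKM. In C2C12 the fast profile led to Dos, 2310046O06Rik, Bace1, Rdh10 and Myl1 (r from 0.991 to 0.993) and the slow profile to Gstp1, Phlda3, Tubb2a, Cx3cl1 and Lgals1 (r of 0.999). Between members, the muscle values of Tnnt3 ran against those of the other fast troponins over the 9 libraries, with r of -0.929 to Tnnc2 and -0.951 to Tnni2, whereas Tnnc2 and Tnni2 had an r of 0.986.

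Levels in muscle followed the order Acta1, Tpm1, Tnnc2, Tnni2, Tnnt3, Actc1, Tpm2, Tnnc1, Tnni1 and Tnnt1 in control and in LPS. In LPS-MIC-1 Actc1 dropped below Tpm2, at 1087 to 1203 FPKM against 2188 to 2412 FPKM, and Tnnt1 and Tnni1 exchanged places within overlapping ranges. Tpm1 and Tnnc2 overlapped in control and LPS-MIC-1 but not in LPS, and Tnnc2 and Tnni2 overlapped in LPS-MIC-1 only. Sums of marker lists for other cell types in the tissue also moved with the groups. Endothelial markers summed to 50.1 to 51.9 FPKM in control, 29.7 to 30.5 under LPS and 29.9 to 34.3 in LPS-MIC-1, smooth muscle markers to 81.9 to 87.3, 66.5 to 70.8 and 38.6 to 41.8 FPKM, and neutrophil markers to no more than 0.910 FPKM outside LPS-MIC-1 and 9.01 to 15.2 within it. From LPS to LPS-MIC-1 the endothelial Cdh5 rose from 18.9 to 22.0 FPKM, Kdr fell from 5.07 to 2.59 and Pecam1 did not pass the test. The neutrophil sum in LPS-MIC-1 was mostly S100a8, at a mean of 7.38 FPKM, and S100a9, at 0, 6.65 and 4.79. Both passed the filter only through LPS-MIC-1. Retnlg had 1.33 and Mpo 0.0584 FPKM there, and Elane was listed at 0. Adipocyte markers summed to 288 to 294, 220 to 244 and 323 to 351 FPKM in control, LPS and LPS-MIC-1, erythroid markers to 58.2 to 61.1, 71.8 to 76.8 and 59.3 to 70.1 FPKM. Nearly all of the adipocyte sum came from Fabp4, a fatty acid carrier, at means of 287, 227 and 325 FPKM. Adipoq had means of 0.400, 0.451 and 0.689 FPKM, Plin1 0.116, 0.102 and 0.0405, and Cfd 2.15, 3.61 and 8.43. Cardiac markers summed to 1.93 to 2.53, 1.14 to 1.59 and 2.81 to 3.82 FPKM, and epithelial markers to 0.495 to 1.02, 1.26 to 1.32 and 0.745 to 0.792 FPKM. Fibroblast markers summed to 117 to 123, 123 to 124 and 134 to 152 FPKM, a sum carried by Dcn, a collagen-binding proteoglycan gene, at means of 69.4, 74.5 and 120 FPKM. Yet 1 of the 6 fibroblast genes tested rose from LPS to LPS-MIC-1 and 4 fell, beside 28.3% and 28.2% of all tested genes. Col1a1, a fibrillar collagen gene, fell from 12.7 to 4.44 FPKM. The cardiac gene Tnni3 was at or below 0.201 FPKM in muscle. The part of other cell types in the differences of the 10 genes was not tested. In C2C12, the fibroblast list summed to between 0.0245 and 1.95 FPKM in control and LPS and to between 442 and 537 in LPS-MIC-1. The smooth muscle list lay between 3.30 and 8.26 FPKM against 348 to 419, and the cardiac list, which holds Tnnt2, between 0.738 and 2.18 FPKM against 88.9 to 94.1. Most of the smooth muscle sum in LPS-MIC-1 was Acta2, at a mean of 317 FPKM, with Smtn at 41.9 and Tagln at 18.9. Myh11 had 0.0299 and Cnn1 0.0769 FPKM there. Most of the cardiac sum was Tnnt2, at 83.9 FPKM, with Nppb at 6.13, Nppa at 0.747, Tnni3 at 0.572, Myh6 at 0.206 and Ryr2 at 0.00695. There the adipocyte list summed to 1.72 to 2.29 FPKM in control, 63.5 to 75.0 under LPS and 1.26 to 4.31 in LPS-MIC-1, nearly all of it from Fabp4, with means of 2.00, 69.5 and 2.45 FPKM. The neutrophil list summed to 0.271 to 0.412, 9.86 to 12.8 and 2.12 to 3.11 FPKM, and its S100a8, a calcium-binding protein of neutrophils, was listed at 0 in control and had means of 10.8 and 2.42 FPKM in the other groups. The epithelial list lay between 0.0139 and 6.50 FPKM, and the erythroid and endothelial lists at or below 0.251 FPKM.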

How the data were processed

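For 18 libraries the authors pseudoaligned reads with kallisto and used tximport to reach the gene level, and they deposited the result as FPKM. The submitters' processing notes name the build mm9, and the files hold no positions. The muscle table also held 9 columns of per-sample values without a name, which were not used, and neither were the deposited DESeq2 tables of fold changes and p-values. Depth in reads is unknown, and values near 0 rest on few reads.

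Each experiment was fitted apart with limma 3.58.1 in R 4.3.3, on log2(FPKM + 0.1), with group means, eBayes with a trend, 9 libraries and genes with a mean FPKM over 1. Fold changes on this scale understate low genes. The Benjamini-Hochberg adjustment covered every gene tested in a comparison. The step was tested on simulated data. The smallest 2-sided exact permutation p of 3 against 3 libraries would be 0.1. Median coefficients of variation per group were 3.47 to 12.1% in C2C12 and 4.05 to 5.36% in muscle (genes over 10 FPKM).

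Named genes were the 10 members, up to 3 genes of each contractile list by highest mean FPKM, and the 5 genes most like the fast and slow profiles. Marker genes, chromosomal neighbours, Casq2 and Tpm3 in muscle, Lmod2 and the myosins were named after their values were seen. The lists covered slow-fibre, fast-fibre, partner and related genes, and macrophage, myoblast, fibroblast, smooth muscle, neutrophil, adipocyte, erythroid, endothelial, epithelial and cardiac markers. Members and lists were chosen with earlier results of these data known. Alternatives were pseudocounts of 1 and 0.01, no filter, a mean over 5 FPKM, TPM scaling (equal library sums), median-ratio and quantile scaling, a replicate block, eBayes without trend, a fit on the 6 compared libraries, and leaving out each library.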

Additional observations from a re-analysis of the deposited data

Results flagged for a closer look

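Several genes moved one way in every C2C12 library and the opposite way in every muscle library under the same comparison. The difference between the experiments was not tested, because the tables were normalized separately and the C2C12 control and LPS libraries carry markers of another cell type. Between LPS-MIC-1 and LPS, Acta1, Actc1, Tnnc2, Tnni2 and Tpm1 were higher in C2C12 and lower in muscle, with muscle log2 differences of -0.52, -1.83, -0.29, -0.24 and -0.41. Between LPS-MIC-1 and control the same 5 genes did so, at -0.54, -1.31, -0.55, -0.39 and -0.60 in muscle. Between LPS and control this held for Tpm1, which was higher in C2C12 and lower in muscle by a log2 difference of -0.18. The 2 comparisons with LPS-MIC-1 share those libraries. In C2C12, Acta1, Actc1 and Tnnc2 exceeded the mean of 1 FPKM only through LPS-MIC-1, so their direction there was fixed in advance. The muscle falls also depended on scaling. Under quantile normalization the muscle differences from LPS were 0 for Acta1 and Tnnc2, -0.01 for Tpm1 and 0.02 for Tnni2. Actc1 kept its fall there, at -1.79.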

How the results depend on the processing

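Over all alternatives the counts of changed genes stayed within 1.5 times of those reported, except in muscle. For LPS against control, 3 of the 10 genes changed without the filter on low values, 3 with eBayes without trend, and 3 to 6 when 1 library was left out, against 6 reported. For LPS-MIC-1 against LPS, quantile normalization left 5 in place of 9, because it fixes the values of top-ranked genes. Leaving out 1 library gave 2 to 3 in C2C12 LPS against control and 10, 10, 9 and 9 in the comparisons with LPS-MIC-1. The replicate numbers did not pair the libraries: deviations of same-numbered libraries correlated with r from -0.0757 to 0.0573 in C2C12 and from -0.0540 to 0.0823 in muscle, and 3 of 9 and 5 of 9 libraries correlated best with their own number. With the replicate block 2 genes changed in C2C12 LPS against control and 9 in LPS-MIC-1 against control (10 against LPS), and in muscle 6, 9 and 9. Leaving out 1 library, Acta1 ran from -1.49 to 0.42 (without control replicate 1) and Tpm2 from -0.16 (without LPS replicate 3) to 0.88 in C2C12 LPS against control. Acta1 ran from -0.0420 to 0.0252 in muscle LPS against control, and Tpm2 from -0.0784 to 0.000567 in muscle LPS-MIC-1 against LPS. With TPM scaling these muscle values were 0.0147 for Acta1 and 0.0890 for Tpm2. With quantile normalization Tnni2 in muscle was 0.0231 for LPS against control, 0.0231 for LPS-MIC-1 against LPS and 0.0462 against control, where Tpm2 was -0.0149. The cause was not tested. TPM scaling moved the median log2 difference of all tested genes to -0.30 and -0.43 (LPS and LPS-MIC-1 against control, C2C12) and to 0.12 and 0.16 (LPS-MIC-1 against LPS and control, muscle). Quantile scaling moved it to -0.12 and -0.10 in the latter. In C2C12, dropping the filter gave 0.19 for LPS-MIC-1 against LPS. Tnnc2 in C2C12 LPS-MIC-1 against control had an adjusted p of 0.00228 with a pseudocount of 0.01 and 0.00107 with the block. Tnni1 in muscle LPS against control lost its call without control replicates 1 or 2 (adjusted p = 0.0501 and 0.0523). It also lost it in the fit on the 6 compared libraries (adjusted p = 0.0535). Tnnc1 gained one without LPS replicate 3 (-1.63, adjusted p = 0.00414).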
